A study of Homo sapiens with 12 samples.

Results

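The proteasome subunit genes are the genes whose symbols read PSMA, PSMB, PSMC, PSMD, PSME or PSMF followed by a number. Pseudogenes and antisense names were left out, and no measured value entered the choice. There were 44 such genes among the 51141 gene symbols of the count table, and 42 passed the filter on low counts and were tested. The other two, PSMA8 and PSMB11, known from the testis and the thymus, were listed at 0 counts in all 12 libraries.

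The proteasome is the barrel-shaped protease that takes apart proteins tagged with ubiquitin. Its 20S core is built of outer rings of alpha subunits (PSMA genes), which gate the entry, and inner rings of beta subunits (PSMB genes), of which PSMB5, PSMB6 and PSMB7 carry the active sites. The 19S regulatory particle binds the core: its base holds a ring of ATPases (PSMC genes) that unfold the substrate, and its lid holds the deubiquitinase PSMD14. Interferon induces PSMB8, PSMB9 and PSMB10, which take the places of the standard catalytic subunits in the immunoproteasome, and the transcription factor NFE2L1 (NRF1) is known to raise proteasome genes through antioxidant response elements in their promoters.

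Messenger RNA was sequenced from EA.hy926 cells, an established hybrid line of human umbilical vein endothelium and the lung carcinoma line A549. The 4 groups of 3 libraries were control cells (normal oxygen, no compound), hypoxia (1% oxygen for 8 h), TEPA (a chelator of copper, at 50 µM for 16 h followed by 8 h at normal oxygen) and TEPA+hypoxia (the same compound, with 1% oxygen in those 8 h). All groups are the same unmodified line, so they stand for 1 tumour-derived hybrid and not for endothelium in a vessel. The labels do not say whether the libraries came from separate cultures, so every p-value measures the spread between these libraries, which may be technical.

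Library totals ran from 13406858 to 24778944 counts. Levels are CPM (counts scaled to a common library size) after scaling by trimmed mean of M values (TMM), and 3 counts, taken as the detection floor, lay between 0.118 and 0.267 CPM. The second and the third hypoxia library, hypoxia 2 and hypoxia 3, differed from the remaining 10. Their TMM factors were 0.772 and 0.838 against 1.03 to 1.08 elsewhere. Hypoxia 1 carries the same label and lay nearer to the control libraries. Of the markers looked at, 13 of 15 endothelial, 6 of 12 epithelial, 5 of 11 fibroblast and mural and 2 of 12 leukocyte genes were tested, and CLDN5 and EMCN (endothelial), CDH1 (epithelial), DCN (fibroblast) and PTPRC (leukocyte) were listed at 0 counts. The summed endothelial markers came to 7309 and 6639 CPM in hypoxia 2 and 3 against 3857 to 4519 elsewhere, and the epithelial markers to 18195 and 15547 CPM against 5446 to 7695. Nearly all of the epithelial sum was KRT7, KRT8 and KRT18, at 11613, 2708 and 3862 CPM in hypoxia 2. SPINT2 and MUC1 were at 3.38 and 6.10 CPM there. EPCAM, near the floor, was at 0.41, 0.40 and 0.35 CPM in control and 0.32, 0.37 and 0.18 in hypoxia 1, 2 and 3. The endothelial list did not move as 1: with all libraries 5 of its 13 tested genes rose and 5 fell in hypoxia against control. Over all genes 29.4% rose and 27.8% fell. ENG (1.36 on the log2 scale) and EGFL7 (1.46) rose, and PECAM1 (-0.41), CDH5 (-0.74), KDR (-1.29), TEK (-2.04) and ERG (-0.65) fell. The fibroblast and mural markers came to 51.9 and 58.4 CPM against 84.7 to 109, and the leukocyte markers to 205 and 191 against 149 to 185. Nearly all of the leukocyte sum was CD68, at 152, 158 and 148 CPM in control and 163, 200 and 185 in hypoxia 1, 2 and 3. LYZ, the other tested leukocyte gene, was at 5.43, 5.67 and 6.09 CPM in control and 4.34, 3.67 and 4.19 in hypoxia. In the fibroblast and mural list RGS5 (-0.65) and POSTN (-1.48) fell while ACTA2 (0.62) and TAGLN (1.15) rose. None of the marker genes was called in this comparison without hypoxia 2 and 3. These sums moved with the proteasome genes described next, and their part in those results was not tested. Each comparison that uses the hypoxia group is therefore given with all 12 libraries and again without hypoxia 2 and 3.

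Some promoters of these genes carry the letters of the antioxidant response element core, TGACNNNGC, searched on both strands in windows from 250 bases before to 50 bases after each RefSeq start (GRCh38.p14). Windows of 39 of the 44 genes were used, 47 in all, without PSMA7, PSMB1, PSMB6, PSMB7 and PSMD4, and 13 of these (27.7%) held the core against 13.3% of 35116 windows over all genes. The hypoxia response element core ACGTG was in 21.3% of the member windows and 21.4% of all windows. The CCAAT box, CCAAT, was in 40.4% and 34.6%, and the interferon response core GAAANNGAA in 14.9% and 8.1%. A match is a description of the letters and not a binding site. The stretches below, upstream of their starts, are shown because they hold the core in 1 subunit of the core ring, 2 of the lid, a chaperone and an activator, members that rose, fell or were not called in hypoxia against control. The capitals mark the TGACNNNGC match, on the strand of the gene except for PSME4, where they mark its reverse complement.
PSMB3, chr17:38752621-38752661, plus strand: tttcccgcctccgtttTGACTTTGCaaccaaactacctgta
PSMD3, chr17:39980754-39980794, plus strand: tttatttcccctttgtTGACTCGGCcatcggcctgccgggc
PSMD12, chr17:67366718-67366758, minus strand: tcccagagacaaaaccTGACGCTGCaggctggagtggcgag
PSMD5, chr9:120843032-120843072, minus strand: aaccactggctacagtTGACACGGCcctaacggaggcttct
PSME4, chr2:53971003-53971043, minus strand: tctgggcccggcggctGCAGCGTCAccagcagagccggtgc

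In control cells the order of levels was set per kilobase of transcript. PSMA7, an alpha ring subunit, was the highest at 476 CPM per kb, followed by PSMA4 at 269, PSMB3 at 262 and PSMC3 at 232. The lowest tested members were the inducible PSMB9 at 9.30 CPM per kb, the ATPase PSMC2 at 10.9, the activator PSME4 at 11.8 and the lid deubiquitinase PSMD14 at 12.4. The inducible PSMB10 stood at 12.6 and the activator PSME2 at 15.1 CPM per kb. Annotated transcript lengths may not be the form used in these cells.

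Together the members took 0.701 to 0.770% of all counts in the control libraries. The share was 0.759, 0.961 and 0.929% in hypoxia 1, 2 and 3, 0.684 to 0.721% in TEPA and 0.584 to 0.667% in TEPA+hypoxia. Counts of the 20S core subunits, inducible ones included, were set against those of the 19S base and lid. The ratio was 0.808 to 0.905 in control, 0.952 in hypoxia 1, 1.27 in hypoxia 2 and 1.18 in hypoxia 3. It was 0.819 to 0.830 in TEPA and 0.752 to 0.854 in TEPA+hypoxia. Hypoxia 2 and 3 thus had both the highest share of proteasome counts and the most counts on the core relative to the base and lid. In bulk RNA, fewer cells of a kind and less RNA per cell cannot be told apart.

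**Figure D1:**
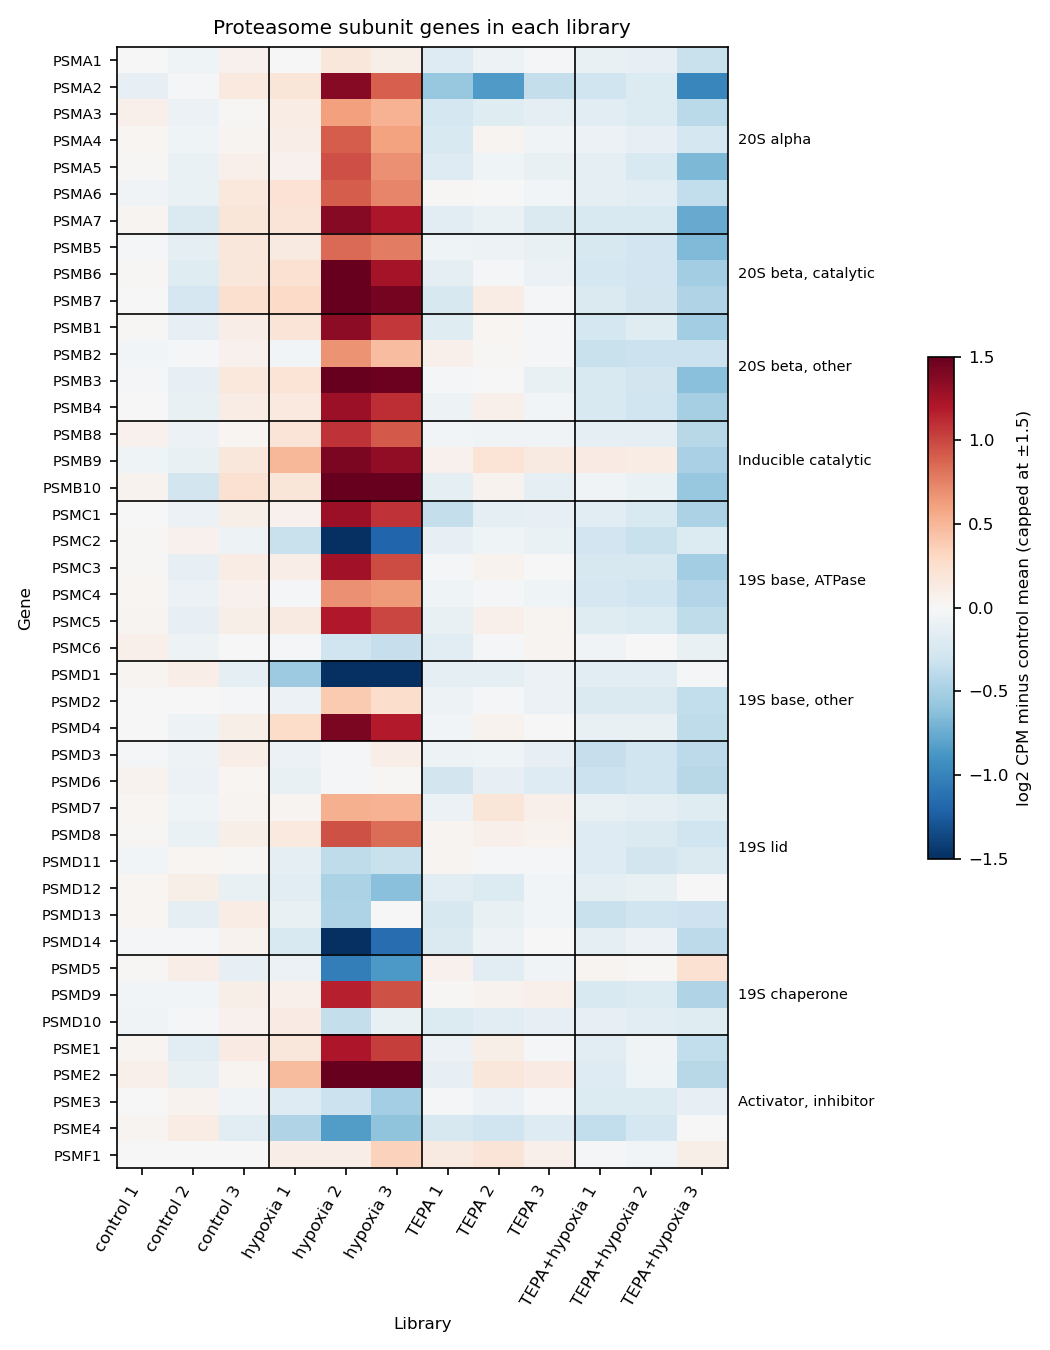
Heat map of the 42 tested genes (rows, by role) in the 12 libraries (columns): log2 CPM minus the mean of the 3 control libraries, capped at 1.5 either way. Red core rows in hypoxia 2 and 3 stand beside blue rows for PSMC2, PSMD1, PSMD14 and PSMD5, and the TEPA+hypoxia columns are pale blue for most genes (median per library -0.19, -0.21 and -0.39).

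Hypoxia against control asks what low oxygen did without the compound. With all 12 libraries, 26 of the 42 tested genes rose and 8 fell (edgeR quasi-likelihood test, Benjamini-Hochberg adjusted p under 0.05 over all 14447 genes tested). Over all genes, 29.4% were called higher and 27.8% lower, and 61.9% of the members were called higher. The median log2 fold change of the members was 0.59, and that of all genes -0.01. Both directions were divided by role: 16 of the 17 tested core genes, inducible subunits included, rose and none fell, while of the 17 base and lid genes 7 rose and 5 fell. These calls ended once hypoxia 2 and 3 were left out, with 0 members higher and 1 lower, where 0.283% and 0.23% of all genes were called. The members' median was then 0.09. In that fit hypoxia 1 alone stands for its group, and its spread is taken to be that of the other groups. The split by role also shrank when the dependence on GC content and transcript length was removed within each library (called the GC and length correction here). Then 9 of the 17 core genes were called higher, and of the 17 base and lid genes 6 were higher and 6 lower. In all, 18 members were called higher and 7 lower, where 27% and 16.6% of the 12556 genes with both properties were. The members' median was then 0.26. The correction rests on annotated transcripts, and those of PSMA5 and PSMC1 are long for their coding lengths.

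The catalytic subunits of the core rose in the full set. PSMB5 bears the chymotrypsin-like site. It stood at 235, 215 and 267 CPM in the control libraries, 262, 429.6 and 404 in hypoxia 1, 2 and 3, 227, 225 and 221 in TEPA, and 201, 195 and 151 in TEPA+hypoxia. Hypoxia 1 lay inside the control range and hypoxia 2 and 3 lay above it, for a log2 change of 0.61 ± 0.17 (SE) (adjusted p = 0.0132). PSMB6, the caspase-like site, stood at 191, 166 and 212 CPM in the control libraries, 221, 533 and 449.9 in hypoxia 1, 2 and 3, 172, 186 and 177 in TEPA, and 158, 155 and 131 in TEPA+hypoxia. All 3 hypoxia libraries exceeded the 3 controls, hypoxia 1 only narrowly, and the log2 fold change was 1.08 ± 0.25 (SE) (adjusted p = 0.00639). PSMB7, the trypsin-like site, was at 129.8, 109 and 153 CPM in the control libraries, 158, 466 and 350.4 in hypoxia 1, 2 and 3, 109, 139 and 127 in TEPA, and 111, 107 and 94.7 in TEPA+hypoxia. All 3 hypoxia libraries again lay above the controls, hypoxia 1 only narrowly, and it had the largest change of the catalytic subunits, 1.32 ± 0.30 (SE) on the log2 scale (adjusted p = 0.00631). Leaving out hypoxia 2 and 3, the values were 0.13 ± 0.15 (SE), 0.22 ± 0.14 (SE) and 0.28 ± 0.17 (SE) for PSMB5, PSMB6 and PSMB7, and none was called (adjusted p = 0.626, 0.351 and 0.346). With the GC and length correction PSMB5 and PSMB6 were no longer called, at 0.12 ± 0.08 (SE) and 0.22 ± 0.09 (SE) (adjusted p = 0.28 and 0.0603), and PSMB7 was, at 0.77 ± 0.20 (SE) (adjusted p = 0.0107).

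The inducible counterparts rose as well with all 12 libraries, and none was called with the GC and length correction, at 0.10 ± 0.08 (SE) for PSMB8, 0.23 ± 0.12 (SE) for PSMB9 and 0.46 ± 0.18 (SE) for PSMB10 (adjusted p = 0.332, 0.142 and 0.0564). PSMB8, which replaces PSMB5, stood at 31.8, 28.5 and 30.8 CPM in the control libraries, 34.6, 64.7 and 57.6 in hypoxia 1, 2 and 3, 29.4, 29.3 and 29.1 in TEPA, and 27.3, 27.7 and 22.8 in TEPA+hypoxia. Hypoxia 1 was above the control range by a few CPM and hypoxia 2 and 3 were far above it, and the log2 fold change was 0.78 ± 0.19 (SE) (adjusted p = 0.00729). PSMB9, which replaces PSMB6, was low throughout, at 6.95, 6.70 and 8.17 CPM in the control libraries, 10.3, 19.5 and 18.4 in hypoxia 1, 2 and 3, 7.61, 8.38 and 7.95 in TEPA, and 7.92, 7.81 and 5.13 in TEPA+hypoxia. Every hypoxia library lay above every control library, and its change was 1.14 ± 0.24 (SE) (adjusted p = 0.00601). PSMB10, which replaces PSMB7, stood at 15.7, 12.5 and 17.7 CPM in the control libraries, 17.2, 62.1 and 53.1 in hypoxia 1, 2 and 3, 13.7, 15.7 and 13.8 in TEPA, and 14.6, 14.1 and 10.2 in TEPA+hypoxia. Here hypoxia 1 was within the control range and the other two were not, for 1.52 ± 0.36 (SE) (adjusted p = 0.00707). PSMB9 gave 0.50 ± 0.23 (SE) without hypoxia 2 and 3 and was not called (adjusted p = 0.21). The inducible subunit as a percentage of its counterpart had a median of 13.3% in control and 14.2% in hypoxia for PSMB8 to PSMB5, 3.86% and 4.10% for PSMB9 to PSMB6, and 11.6% and 13.3% for PSMB10 to PSMB7. In each pair the hypoxia and control libraries overlapped.

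**Figure D2:**
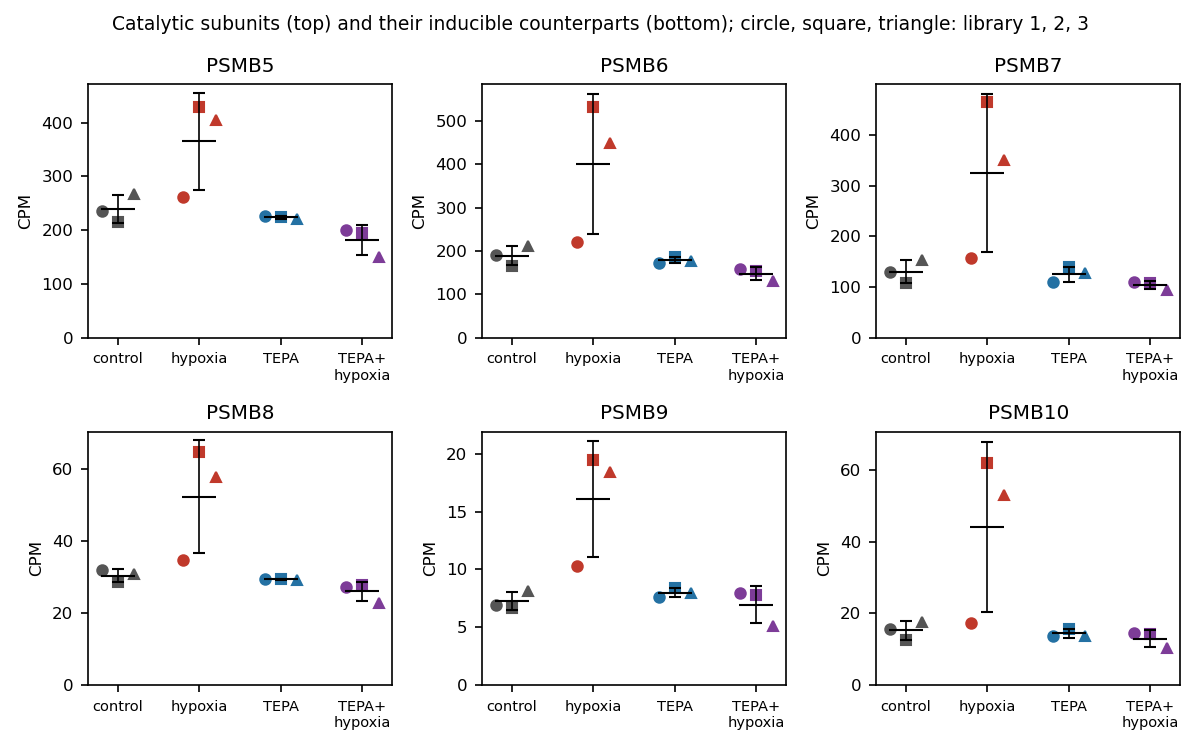
CPM of the standard catalytic subunits (top) and the inducible ones (bottom) in each library. Symbols are libraries 1, 2 and 3 of a group, and bars give the mean and SD of 3 libraries. Hypoxia 2 and 3 are the highest points in all 6 panels.

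Of the inducible set's wider programme, 15 of 16 interferon and antigen presentation genes were tested. With all libraries 6 rose and 3 fell in hypoxia against control (over all genes 29.4% rose and 27.8% fell). HLA-C, an MHC class I heavy chain, gave a log2 change of 0.89 and ISG15, a ubiquitin-like modifier, 1.85 (adjusted p = 0.00601 for both), while GBP1, an interferon-induced GTPase, gave -0.95 (adjusted p = 0.00601). None of the 15 was called in this comparison without hypoxia 2 and 3.

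The alpha ring subunits all had positive differences, and 6 of 7 rose, with a median log2 fold change of 0.62. PSMA7 had the largest. It stood at 483, 405 and 534 CPM in the control libraries, 538, 1215 and 1094 in hypoxia 1, 2 and 3, 418, 441 and 406 in TEPA, and 404, 403 and 278 in TEPA+hypoxia. Hypoxia 1 only just exceeded control 3, and hypoxia 2 and 3 were the highest of all 12 libraries, for 1.00 ± 0.25 (SE) (adjusted p = 0.00868). PSMA1 had the smallest, at 255, 246 and 267 CPM in the control libraries, 257, 289 and 272 in hypoxia 1, 2 and 3, 224, 242 and 252 in TEPA, and 237, 235 and 202 in TEPA+hypoxia. Its groups overlapped, and its difference of 0.09 ± 0.09 (SE) was not called (adjusted p = 0.415). PSMA6 stood at 205, 198 and 237 CPM in the control libraries, 247, 401 and 353 in hypoxia 1, 2 and 3, 216, 211 and 207 in TEPA, and 193, 189 and 165 in TEPA+hypoxia, with every hypoxia library above every control, for 0.65 ± 0.15 (SE) (adjusted p = 0.00701). The GC and length correction ended the call of PSMA7, at 0.29 ± 0.13 (SE) (adjusted p = 0.0757), and that of PSMA3, and left PSMA6 called at 0.38 ± 0.10 (SE).

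The noncatalytic beta subunits rose in 4 of 4 cases. PSMB3 led with 197, 184 and 225 CPM in the control libraries, 232, 723 and 559 in hypoxia 1, 2 and 3, 199.8, 199.9 and 186 in TEPA, and 172, 166 and 130.1 in TEPA+hypoxia. Hypoxia 1 was close to control 3, and the change was 1.32 ± 0.30 (SE) (adjusted p = 0.00651). PSMB4 stood at 200.1, 185 and 215 CPM in the control libraries, 221, 487 and 430.2 in hypoxia 1, 2 and 3, 189, 211 and 194 in TEPA, and 171, 162 and 141 in TEPA+hypoxia. All hypoxia libraries lay above the controls, for 0.92 ± 0.22 (SE) (adjusted p = 0.00744). PSMB2 changed least, at 202, 204 and 216 CPM in the control libraries, 201, 329.5 and 286 in hypoxia 1, 2 and 3, 219, 209 and 205 in TEPA, and 164, 166 and 165 in TEPA+hypoxia. Hypoxia 1 lay below all 3 controls, so the called change of 0.39 ± 0.14 (SE) (adjusted p = 0.0356) rests on hypoxia 2 and 3 and was -0.04 ± 0.09 (SE) without them. All 4 were still called with the GC and length correction, PSMB3 at 0.49 ± 0.15 (SE), PSMB4 at 0.29 ± 0.11 (SE) and PSMB2 at 0.78 ± 0.20 (SE).

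The 19S base divided. Of its 6 ATPases, 4 rose and 1 fell. PSMC1 stood at 88.0, 83.4 and 93.8 CPM in the control libraries, 92.7, 215 and 187 in hypoxia 1, 2 and 3, 68.9, 80.2 and 81.2 in TEPA, and 79.3, 75.2 and 63.3 in TEPA+hypoxia. Hypoxia 1 was within the control range, and the change was 0.90 ± 0.24 (SE) (adjusted p = 0.0101). NRDE2 on the other strand overlaps 75.8% of the exonic length of PSMC1, and whether reads were assigned by strand is not given in the sources used here. PSMC2, in the same ring, moved the other way, at 29.1, 29.9 and 27.2 CPM in the control libraries, 22.6, 8.23 and 12.6 in hypoxia 1, 2 and 3, 26.4, 27.5 and 26.8 in TEPA, and 23.5, 22.7 and 24.9 in TEPA+hypoxia. All 3 hypoxia libraries lay below the 3 controls, with hypoxia 1 nearest to them, and the log2 fold change was -0.98 ± 0.26 (SE) (adjusted p = 0.0106). Of the base subunits that are not ATPases, PSMD4, a ubiquitin receptor, stood at 167, 159 and 179 CPM in the control libraries, 204, 448 and 384 in hypoxia 1, 2 and 3, 163, 175 and 168 in TEPA, and 156, 156 and 129 in TEPA+hypoxia. Its rise was 1.04 ± 0.22 (SE) on the log2 scale (adjusted p = 0.00601), and here hypoxia 1 too stood clear of the controls. PSMD1, the large scaffold on which ubiquitin receptors dock, was at 138, 144 and 121 CPM in the control libraries, 91.4, 15.1 and 26.3 in hypoxia 1, 2 and 3, 122, 121 and 126 in TEPA, and 119.5, 120.1 and 132 in TEPA+hypoxia. The order of the libraries was complete, with hypoxia 1 below every other library but its 2 companions. Its log2 fold change was -1.59 ± 0.47 (SE) (adjusted p = 0.0151). PSMD1 was the only member called in this comparison without hypoxia 2 and 3, at -0.55 ± 0.11 (SE) (adjusted p = 0.0483). With the GC and length correction PSMC1, PSMC2 and PSMD4 were called at 1.53 ± 0.33 (SE), -0.58 ± 0.15 (SE) and 0.47 ± 0.11 (SE), while PSMC3 was not, at 0.20 ± 0.10 (SE), and PSMD2 was called higher, at 0.33 ± 0.12 (SE).

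In the lid, 2 of 8 genes rose and 3 fell. PSMD8 stood at 223, 205 and 234 CPM in the control libraries, 244, 429 and 395 in hypoxia 1, 2 and 3, 228, 233 and 229.7 in TEPA, and 193, 191 and 179 in TEPA+hypoxia, for 0.69 ± 0.17 (SE) (adjusted p = 0.0073), with every hypoxia library above the controls. PSMD14, which removes ubiquitin from the substrate, was at 23.6, 23.8 and 25.2 CPM in the control libraries, 20.6, 7.20 and 10.9 in hypoxia 1, 2 and 3, 20.8, 23 and 24.3 in TEPA, and 21.8, 22.7 and 18.3 in TEPA+hypoxia. Every hypoxia library was below the controls, and the change was -0.90 ± 0.28 (SE) (adjusted p = 0.0189). PSMD11 and PSMD12 also fell, by 0.29 and 0.41 on the log2 scale. PSMD7, the partner of PSMD14, rose by 0.38 ± 0.13 (SE). PSMD3, PSMD6 and PSMD13 were not called, at -0.01 ± 0.09 (SE), -0.04 ± 0.09 (SE) and -0.19 ± 0.13 (SE). The GC and length correction put these last 3 among the genes called lower, at -0.47 ± 0.08 (SE), -0.20 ± 0.06 (SE) and -0.42 ± 0.13 (SE) (adjusted p = 0.00555, 0.0218 and 0.0203). It ended the call of PSMD8, at -0.03, and left PSMD14 called at -0.82 ± 0.24 (SE). PSMD11 lost its call, at 0.17 ± 0.08 (SE). PSMD12 turned from called lower to called higher, at 0.39 ± 0.11 (SE) (adjusted p = 0.0176).

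The chaperones that assemble the base went separate ways. PSMD9 stood at 59.6, 59.7 and 65.3 CPM in the control libraries, 64.8, 138 and 119 in hypoxia 1, 2 and 3, 62.4, 63.8 and 64.7 in TEPA, and 52.4, 53.5 and 45.0 in TEPA+hypoxia, for 0.80 ± 0.21 (SE) (adjusted p = 0.00996). PSMD5 was at 76.0, 80.5 and 68.9 CPM in the control libraries, 70.7, 36.4 and 41.3 in hypoxia 1, 2 and 3, 78.6, 66.7 and 72.1 in TEPA, and 77.2, 76.0 and 87.9 in TEPA+hypoxia, for -0.60 ± 0.20 (SE) (adjusted p = 0.0266). For both, hypoxia 1 lay within the control range. PSMD10 was not called, at -0.10 ± 0.11 (SE). PSMD5 lost its call with the GC and length correction (adjusted p = 0.852).

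Among the activators, PSME1 and PSME2, which form the PA28 cap linked to antigen processing, rose. PSME2 had the largest rise of all members, at 22.4, 19.6 and 21.8 CPM in the control libraries, 29.6, 94.0 and 68.8 in hypoxia 1, 2 and 3, 19.5, 23.9 and 23.2 in TEPA, and 18.5, 20.2 and 15.9 in TEPA+hypoxia. Each hypoxia library exceeded each control, and the log2 fold change was 1.59 ± 0.31 (SE) (adjusted p = 0.00601). It was 0.47 ± 0.16 (SE) without hypoxia 2 and 3 and no longer called (adjusted p = 0.132). PSME4, the large nuclear activator PA200, moved the other way, at 85.8, 90.7 and 75.2 CPM in the control libraries, 60.9, 46.7 and 54.8 in hypoxia 1, 2 and 3, 70.5, 68.1 and 73.2 in TEPA, and 64.8, 69.5 and 83.8 in TEPA+hypoxia. Again all 3 hypoxia libraries lay on 1 side of the controls, for -0.63 ± 0.13 (SE) (adjusted p = 0.00601). PSME3, the nuclear PA28 gamma, fell by 0.34 on the log2 scale, and the inhibitor PSMF1 (PI31) was not called at 0.18 ± 0.09 (SE). With the GC and length correction PSME2 was called at 0.75 ± 0.17 (SE), PSME3 at -0.81 ± 0.17 (SE) and PSMF1 at 0.80 ± 0.14 (SE), and PSME1 lost its call, at 0.23 ± 0.09 (SE). PSME4 changed sign, to 0.28 ± 0.12 (SE), and was not called (adjusted p = 0.0782).

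Hypoxia 1 alone stood outside the range of the 3 control libraries for 30 members, 19 above and 11 below, and 35.7% and 35.6% of all genes did so. By role, it was above all controls for 5 of 7 alpha subunits, 2 of 3 catalytic, 3 of 4 other beta and 2 of 3 inducible subunits, and below them for 5 of 8 lid genes. For 36 of the 42 members hypoxia 1 and the mean of hypoxia 2 and 3 lay on the same side of the control mean, and for 40 of 42 the difference was larger in hypoxia 2 and 3. Hypoxia 1 shares the control mean with the other two in this count, which is given as a description.

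Members that rose and fell also differed in size and base composition, which the choice of genes did not use. The 26 that rose had a median coding length of 759 nt and a median transcript GC content of 52.0%. The 8 that fell had 1336.5 nt and 42.85%. Across the 42 members, Spearman's rho between the difference from control and coding length was -0.60, -0.51 and -0.47 in hypoxia 1, 2 and 3, with transcript length -0.72, -0.62 and -0.62, and with GC content 0.44, 0.54 and 0.61. Over 12556 genes of the series, rho with transcript length was -0.47, -0.51 and -0.52, and with GC content 0.38, 0.53 and 0.55. In TEPA 1, 2 and 3, at normal oxygen, rho with GC content was 0.39, 0.50 and 0.16 across the members. Over the same 12556 genes it was 0.16, 0.38 and 0.01. With transcript length, rho across the members was 0.003, -0.31 and 0.01 in these TEPA libraries. These are correlations across genes that share the libraries and the control mean, so no p is given. With the GC and length correction PSMC4, PSMD8, PSMD11, PSMD12 and PSME4 changed sign, to -0.10, -0.03, 0.17, 0.39 and 0.28. Of these only PSMD12 was called, now higher (adjusted p = 0.0176). TEPA+hypoxia 3 had the opposite slopes, with rho of 0.41 for coding length and -0.41 for GC content.

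**Figure D3:**
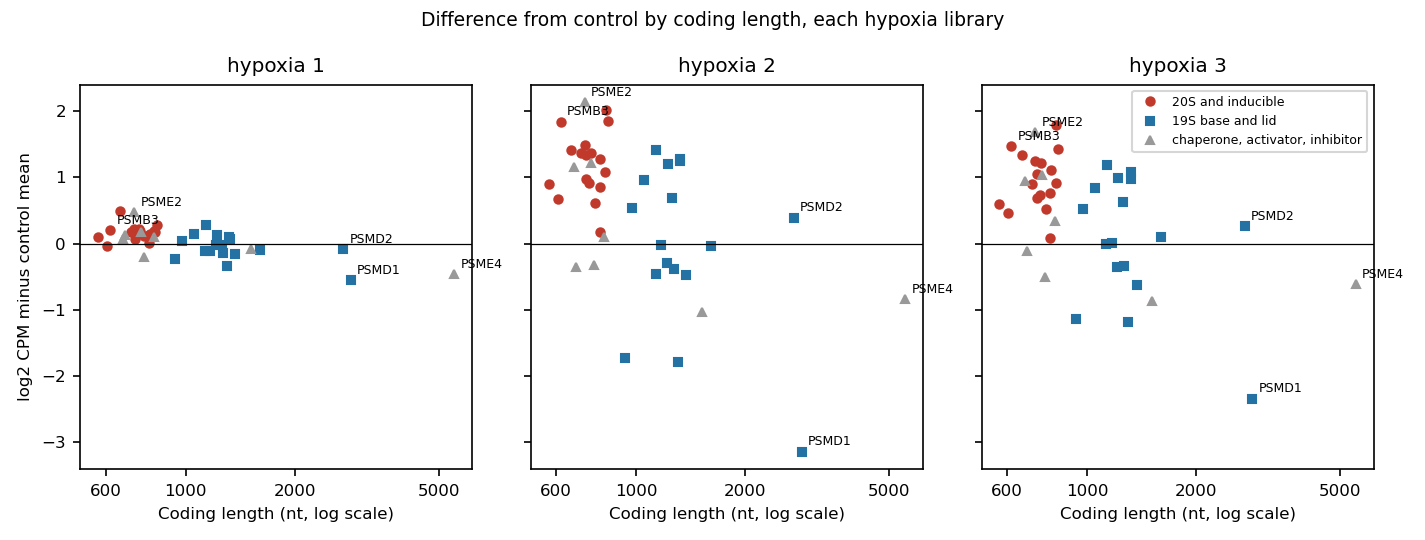
Difference of each member from the control mean (log2 CPM, vertical axis) against its coding length (nt, log scale) in hypoxia 1, 2 and 3. Short core genes lie mostly above 0 and PSMD1 and PSME4 below it in all 3 panels, over a narrower span in hypoxia 1.

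Hypoxia was next compared in cells that had received TEPA, a comparison in which no library of the hypoxia group is used for the means. No member was called in TEPA+hypoxia against TEPA, where 0.0969% of all genes were. By unadjusted p under 0.05, 3 members passed, and DESeq2 and limma-voom called 0. The direction was nearly uniform: 36 of 42 log2 fold changes were negative (85.7%, against 49.2% of all genes), with a median of -0.20. In 22 of the 42 genes (52.4%) every TEPA+hypoxia library lay below every TEPA library, which held for 18% of all genes, and in 0 the reverse. TEPA+hypoxia 3 was the lowest of all 12 libraries for 29 members. With that library left out, an alternative chosen after seeing the data, the other two lay below all 3 TEPA libraries for 24 members and above them for 1, against 24.2% and 17.3% of all genes.

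The genes with this complete order included 4 of 6 base ATPases, 6 of 8 lid genes, 3 of 4 noncatalytic beta subunits, 2 of 3 catalytic subunits and 2 of 7 alpha subunits. PSMB2 had the lowest value, -0.35 ± 0.14 (SE) (adjusted p = 0.574). Its 3 TEPA libraries lay between 205 and 219 CPM and its TEPA+hypoxia libraries between 164 and 166. Without hypoxia 2 and 3, which lowers the spread shared by all groups, PSMB2 was called at -0.34 ± 0.06 (SE) (adjusted p = 0.0148), the only member among 0.842% of genes called lower. PSMC3 gave -0.34 ± 0.22 (SE), PSMD9 -0.34 ± 0.21 (SE) and PSMB4 -0.33 ± 0.22 (SE), none called. PSMD1 and PSME4, which fell in hypoxia against control, gave 0.01 ± 0.46 (SE) and 0.04 ± 0.13 (SE). PSMD5 gave 0.15 ± 0.20 (SE), the highest value of the set.

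**Figure D4:**
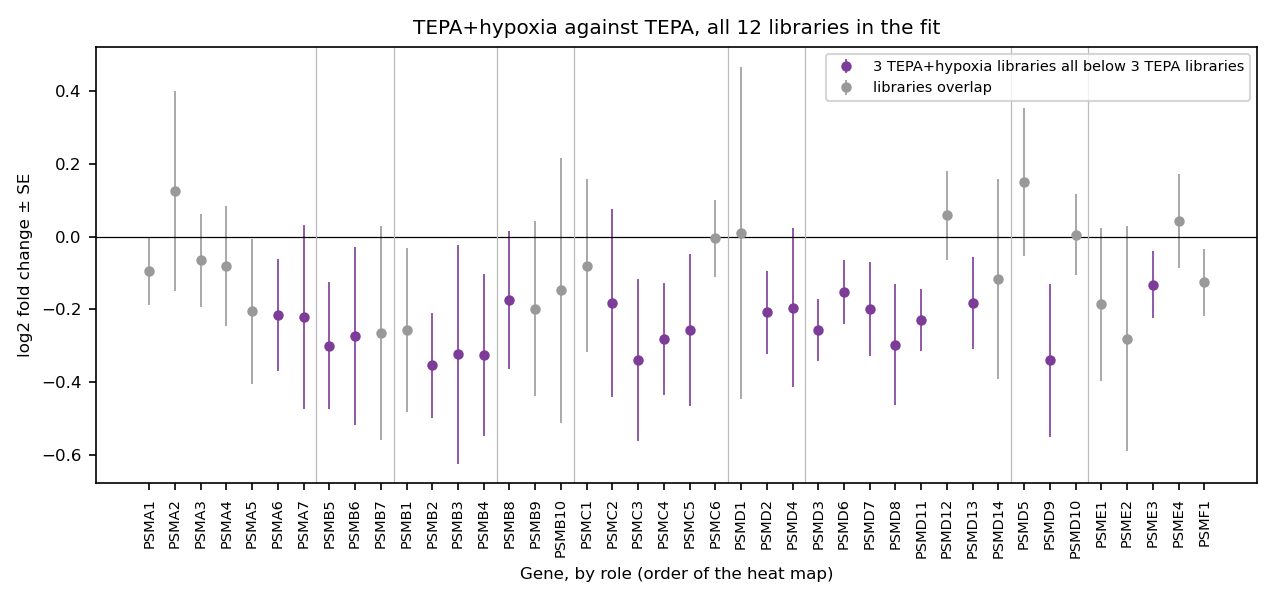
Log2 fold change and SE of each member (by role) in TEPA+hypoxia against TEPA. Purple points are the 22 genes whose TEPA+hypoxia libraries all lie below the TEPA libraries, and 36 of the 42 points lie below 0.

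TEPA against control, at normal oxygen, gave no call for a member, and 0% of all genes were called. By unadjusted p, 1 member and 289 genes passed 0.05, and DESeq2 and limma-voom also called 0 members. The median was -0.06 and 32 of 42 values were negative (76.2%, against 48.9% of all genes). In 6 members (14.3%) every TEPA library lay below every control, against 6.92% of all genes. In 1 member (2.4%) every TEPA library lay above every control, against 6.64% of all genes. PSMA2, an alpha subunit, had the largest difference, -0.58 ± 0.27 (SE) (adjusted p = 1). It stood at 42.2, 45.3 and 50.8 CPM in the control libraries, 52.2, 119 and 85.7 in hypoxia 1, 2 and 3, 31.1, 25.5 and 35.7 in TEPA, and 37.3, 39.9 and 23.3 in TEPA+hypoxia. The TEPA libraries of PSMA2 were all below the controls, although a readthrough transcript shares exons with this gene.

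TEPA+hypoxia against hypoxia compares the compound with none under low oxygen. With all libraries 30 members fell and 5 rose, while 30.6% of all genes were lower and 30.9% higher. The members' median was -0.83. In the fit that leaves out hypoxia 2 and 3, 14 fell and 1 rose, against 7.17% and 7.98% of all genes, with a median of -0.35.

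Those 14 genes included all 3 catalytic and all 4 noncatalytic beta subunits. PSMB5, PSMB6 and PSMB7 gave -0.51 ± 0.15 (SE), -0.57 ± 0.13 (SE) and -0.59 ± 0.17 (SE) (adjusted p = 0.0361, 0.0218 and 0.0339). For each of these, the 3 TEPA+hypoxia libraries listed above lie below hypoxia 1. PSMB3 gave -0.56 ± 0.14 (SE) and PSMB4 -0.47 ± 0.12 (SE) (adjusted p = 0.0266 and 0.0268). PSME2 had the largest fall, -0.69 ± 0.16 (SE) (adjusted p = 0.0218), and PSMA6 was the only alpha subunit, at -0.43 ± 0.12 (SE). Outside the core, PSMC3, PSMC5, PSMD4, PSMD8 and PSMD10 made up the rest. PSMD1 rose by 0.44 ± 0.11 (SE) (adjusted p = 0.0246). Against the range of the 3 TEPA+hypoxia libraries, hypoxia 1 was higher for 34 members and lower for 5, where 38.3% and 38.6% of all genes were.

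The interaction sets the response to hypoxia with TEPA against the response without it. With all libraries it was lower for 25 members and higher for 1, PSME4 at 0.67 ± 0.18 (SE) (adjusted p = 0.0237), where 21.5% and 17.3% of all genes were called. The median was -0.76. PSME2 had the lowest value, -1.87 ± 0.44 (SE) (adjusted p = 0.0236), followed by PSMB10 at -1.67 ± 0.51 (SE) and PSMB3 at -1.64 ± 0.43 (SE). All 3 catalytic and all 3 tested inducible subunits were among the calls. Without hypoxia 2 and 3 no member and 0% of all genes were called, while 17 members and 4117 genes passed an unadjusted p of 0.05. The calls also fell to 0, for members and for all genes, when control 1, control 2, hypoxia 3, TEPA 2 or TEPA+hypoxia 3 alone was left out. All 26 called members kept their sign in each of these fits. With the GC and length correction 18 members were lower and 1 was higher (15.3% and 5.3% of all genes). Of the 26 members called without the correction, 14 kept their call. PSMD2, PSMD11, PSMD12 and PSMF1 were newly called lower. The 1 higher was PSME3, at 0.77 ± 0.23 (SE) (adjusted p = 0.0406). PSME4 then turned to -0.40 and was not called (adjusted p = 0.101). PSME2 and PSMB3 were called at -0.92 ± 0.25 (SE) and -0.70 ± 0.22 (SE), and PSMB10, PSMB5 and PSMB6 were not, at -0.49 ± 0.26 (SE), -0.34 ± 0.12 (SE) and -0.37 ± 0.12 (SE). PSMB8 and PSMB9 were not called either, at -0.18 ± 0.11 (SE) and -0.30 ± 0.17 (SE).

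Genes that work beside the subunits were read from lists written by hand. Of 14 other proteasome components and assembly factors, 6 rose and 2 fell in hypoxia against control with all libraries. Over all genes 29.4% rose and 27.8% fell. POMP, the chaperone that matures the core, gave 0.78 (adjusted p = 0.00953), and ADRM1, a ubiquitin receptor of the base, 0.94 (adjusted p = 0.00635). SEM1, the small lid subunit that the table lists under its older symbol SHFM1, gave 1.45 (adjusted p = 0.00601). The core assembly chaperones PSMG2, PSMG3 and PSMG4 rose by 1.08, 1.74 and 1.28, and PSMG1 was not called at 0.17. PSMG2 was low, with 278 counts over all libraries together. The ubiquitin ligase UBE3C, which acts at the proteasome, fell by 2.13 (adjusted p = 0.0092). None of the 14 was called in this comparison without hypoxia 2 and 3.

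UBB, which encodes ubiquitin, gave 0.80 in hypoxia against control (adjusted p = 0.00601), and UBA1, the main ubiquitin-activating enzyme, -1.16 (adjusted p = 0.0126). UBB was also called without hypoxia 2 and 3 in TEPA+hypoxia against TEPA, at -0.27 (adjusted p = 0.0411). Among 8 tested deubiquitinases and shuttle receptors, 5 fell and 1 rose (over all genes 27.8% fell and 29.4% rose), with DDI2, the protease that activates NFE2L1, at -2.14 (adjusted p = 0.00601). DDI2 was low, at 3.78, 5.79 and 3.07 CPM in control and 1.62, 0.661 and 0.446 CPM in hypoxia 1, 2 and 3. The floor of 3 counts was 0.220 and 0.267 CPM in hypoxia 2 and 3. Among 9 genes of the p97 unfoldase and its cofactors, 5 rose and 2 fell, and VCP, the unfoldase, was not called at 0.06 (adjusted p = 0.613). Of the genes in this paragraph none was called in hypoxia against control without hypoxia 2 and 3: UBB was then at 0.23, UBA1 at -0.36 and DDI2 at -1.37 (adjusted p = 0.153, 0.0952 and 0.102).

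Of 8 regulators, 2 rose and 4 fell in hypoxia against control with all libraries (over all genes 29.4% rose and 27.8% fell). NFE2L1 fell by 0.35 (adjusted p = 0.0173), NFE2L2 by 0.74 (adjusted p = 0.0162) and NFE2L3 by 1.26 (adjusted p = 0.0149), while KEAP1, which restrains NFE2L2, gave 0.50 (adjusted p = 0.0147). NFE2L1 was at -0.10 without hypoxia 2 and 3 (adjusted p = 0.446), and no regulator was called then in this comparison.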

How the data were processed

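The deposited table held raw counts per gene symbol, whole numbers with 1 column per library. Per the submitters' processing notes, the authors used HISAT2 2.1.0 and GRCh38 and named DESeq. Which counter, annotation and strand setting they used is not given in those sources. Per the labels' protocols, TRIzol RNA was selected for poly(A) and prepared with a directional kit.

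The analysis used edgeR 4.0.16 in R 4.3.3. Genes were filtered with filterByExpr by group, leaving 14447. With TMM scaling, 1 model with a mean for each group was fitted over the 12 libraries. The quasi-likelihood F-test (two-sided) gave 5 contrasts, with p-values adjusted by Benjamini-Hochberg over all genes tested and a threshold of 0.05. The common dispersion came to 0.0339 in the full set and to 0.00850 after leaving out hypoxia 2 and 3. The code was tested on simulated counts. Alternatives were DESeq2 1.42.0, limma 3.58.1 (voom), other scalings and filters, a replicate block, only the groups compared, each library left out, and GC and length splines with 4 degrees of freedom, which covered 86.9% of genes. Coordinates and lengths come from GENCODE 29 and promoters from RefSeq GRCh38.p14.

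Values per library are given for PSMB5 to PSMB10, for the highest and lowest member of each role in hypoxia against control, and for up to 8 members with the smallest p among those called in the other contrasts or without hypoxia 2 and 3. Other lists are named by up to 3 genes with the smallest p and a few set genes, and some results of these lists are not reported here. PSMA2 was named for its values. The members and lists were chosen with earlier results of these data known. Where reads match a pseudogene (PSMA6, PSMC1, PSMC6) or an overlapping gene, the count of a member is uncertain.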

Additional observations from a re-analysis of the deposited data

Results flagged for a closer look

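By the interaction test with all 12 libraries, 26 of the 42 tested genes were called (edgeR, adjusted p from 0.0236 to 0.0478). Over all genes, 21.5% were called lower and 17.3% higher. No member and no other gene was called when control 1, control 2, hypoxia 3, TEPA 2 or TEPA+hypoxia 3 alone was left out. Each value here is the log2 response with TEPA minus the log2 response without it. In the alpha ring it was -0.50 for PSMA3, -0.66 for PSMA4, -0.83 for PSMA5, -0.86 for PSMA6 and -1.22 for PSMA7. Of the catalytic subunits, PSMB5 gave -0.91, PSMB6 -1.35 and PSMB7 -1.58, and the inducible PSMB8 gave -0.96, PSMB9 -1.34 and PSMB10 -1.67. The other beta subunits gave -1.19 for PSMB1, -0.75 for PSMB2, -1.64 for PSMB3 and -1.25 for PSMB4. In the base, PSMC1 gave -0.98, PSMC3 -1.19, PSMC4 -0.75, PSMC5 -1.10 and PSMD4 -1.23. In the lid, PSMD7 gave -0.58 and PSMD8 -0.99, and the chaperone PSMD9 gave -1.14. The activators gave -1.05 for PSME1, -1.87 for PSME2 and 0.67 for PSME4, the only positive value. Without hypoxia 2 and 3 none of the 26 was called. With the GC and length correction 14 of the 26 kept their call.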

How the results depend on the processing

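Signs were stable under RLE scaling, upper quartile scaling, tests on unfiltered genes or on genes with 1 CPM in 3 libraries, DESeq2, limma-voom and the replicate block, where every member called in hypoxia against control, in TEPA+hypoxia against hypoxia or in the interaction kept its sign. Without hypoxia 2 and 3, hypoxia against control had 0 members higher and 1 lower (median 0.09), TEPA+hypoxia against TEPA 1 lower, TEPA+hypoxia against hypoxia 1 higher and 14 lower (median -0.35), and the interaction 0 in either direction (median -0.24). In that fit PSMB2 and PSMC4 turned to -0.043 and -0.017 in hypoxia against control. With only the groups compared, hypoxia against control had 0 and 0, TEPA+hypoxia against hypoxia 0 higher, and TEPA+hypoxia against TEPA 2 lower. Over all genes, hypoxia against control had 4254 higher and 4016 lower with all libraries, and 0 and 0 with only the groups compared. In TEPA+hypoxia against TEPA, 9 genes were higher and 5 lower with all libraries, against 92 and 53 with DESeq2, 205 and 150 with only the groups compared, and 33 and 8 with GC and length correction. That correction gave 2086 genes lower in hypoxia against control, 2269 higher in TEPA+hypoxia against hypoxia (4467 in the full set, 2204 with only the groups compared), and 665 higher and 1923 lower in the interaction (2498 and 3113 in the full set). The members called higher in the interaction numbered 2 with upper quartile scaling, 3 with no filter, 2 with the 1 CPM filter, 4 with DESeq2 and 5 with limma-voom. Over all genes, these fits called 2560, 2526, 2551, 3115 and 3277 higher.

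With GC and length correction the median was 0.26 in hypoxia against control, -0.48 in TEPA+hypoxia against hypoxia (3 members higher) and -0.43 in the interaction. With the replicate block added to it, 16 members were higher in hypoxia against control (median 0.25), 3 higher in TEPA+hypoxia against hypoxia (median -0.47), and the interaction had 0 higher and 6 lower (median -0.43). Over all 12556 genes, that fit called 3043 and 2160 higher in these 2 comparisons, and 237 higher and 846 lower in the interaction. Signs turned, without and with the block, in hypoxia against control for PSMC4 (-0.10 and -0.10), PSMD11 (0.17 and 0.17), PSMD12 (0.39 and 0.38), PSMD8 (-0.026 and -0.027) and PSME4 (0.28 and 0.27). They turned in TEPA+hypoxia against hypoxia for PSMD12 (-0.58 and -0.57), PSMD3 (0.17 and 0.17) and PSME4 (-0.63 and -0.62), and in the interaction for PSME4 (-0.40 and -0.39). Without and with the block, PSMD12 was then called higher in hypoxia against control. In TEPA+hypoxia against hypoxia, PSMD12 and PSME4 were called lower. The other turned values were not called. The cause was not tested.

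Leaving out 1 library at a time, hypoxia against control had 18 to 28 members higher and 3 to 10 lower, TEPA+hypoxia against hypoxia 1 to 8 higher and 28 to 31 lower, TEPA+hypoxia against TEPA 0 to 1 lower, TEPA against control 0, and the interaction 0 to 9 higher and 0 to 29 lower. Over all genes, those fits called 2853 to 5085 higher and 2103 to 5538 lower in hypoxia against control. TEPA+hypoxia against hypoxia had 3133 to 5765 genes higher and 3487 to 5100 lower, and the interaction 0 to 5261 and 0 to 4497. For the members, the lowest count of higher calls in hypoxia against control came without control 2 and, equally, without hypoxia 2. Their lowest count of lower calls came without hypoxia 3. Where an arm then has 2 libraries, their spread is pooled with the other groups.

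Replicate numbers gave no sign of pairing: correlations of deviations between same-numbered libraries ran from -0.36 to 0.32 (median -0.04), with 6 of 18 over 0.1. Between differently numbered libraries of 2 groups they ran from -0.46 to 0.49 (median 0.02), with 14 of 36 over 0.1. With the replicate block, hypoxia against control had 25 members higher and 8 lower, TEPA+hypoxia against hypoxia 4 and 30, the interaction 1 and 21, and the other contrasts 0. Over all genes these were 3924 and 3770, 4266 and 4139, and 2020 and 2522 for the first 3 contrasts named.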
